A study of Homo sapiens with 9 samples.

Results

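The nuclear pore complex was examined through 31 genes that encode its proteins. They were the rows of a deposited count table whose Ensembl identifiers carry these 31 symbols in GENCODE 29, out of 26186 genes in the table and 16235 with enough counts to be tested. All 31 were in the table and all 31 were tested. The cells were MCF10A, a human mammary epithelial line that does not form tumours, infected with pLKO.1 lentiviruses. A hairpin against green fluorescent protein (shGFP) served as control, and shCHAF1B-1 and shCHAF1B-2 were different hairpins against CHAF1B, a subunit of the histone chaperone CAF-1. Each group had 3 libraries of polyadenylated RNA. In every group, controls included, puromycin at 2 µg/mL was added 24 hours after the virus and RNA was taken 3 days after infection. Each library thus came from a culture put under selection, and how complete the selection was could not be examined. Whether the replicates were separate cultures is not stated in the labels, and the p-values rest on a spread between libraries that may be technical. The question was how RNA levels differ once CAF-1 is suppressed.

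The nuclear pore is a channel through the nuclear envelope, built of stacked rings that repeat around a central axis. Outer and inner rings form a scaffold, a membrane ring anchors it in the envelope, and proteins rich in phenylalanine-glycine repeats line the channel, where they let transport receptors with cargo pass. A basket faces the nucleus and filaments face the cytoplasm, where messenger RNA is released. Dividing cells make new pores both at the end of mitosis, on chromatin, and during interphase, into the closed envelope.

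Most pore genes were lower after CHAF1B knockdown, by small amounts. With both hairpins combined (the mean of their effects against shGFP), 23 of the 31 fell and 3 rose, at an adjusted p under 0.05 (edgeR's quasi-likelihood test with Benjamini-Hochberg adjustment over all tested genes, as for every adjusted p here). Over all tested genes 27.7% fell and 29.2% rose. The share of pore genes that fell, 74.2%, thus stood above the background and the share that rose below it. This background was not matched to the pore genes for count depth, which affects how small a change can be called. The median log2 fold change was -0.23 for the pore genes and -0.01 for all tested genes. The summed level of the 31 genes was 3513 ± 32.5 CPM (each gene's share of the library's counts, scaled by TMM) in shGFP, 3061 ± 38.9 CPM under shCHAF1B-1 and 3102 ± 54.1 CPM under shCHAF1B-2 (SD, n = 3 each), or 87.7% of the control level over both hairpins. NUP210 was the only one to fall by more than 2-fold, and without it the sum was 89% of control. In bulk RNA, fewer cells of a kind and less RNA per cell cannot be told apart. These values are of messenger RNA and say nothing directly about the number of pores.

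The libraries were 24339914 to 31819468 counts deep, and no pore gene had fewer than 415 counts in any library. CHAF1B itself lay between 35.2 and 41 CPM in shGFP and between 2.56 and 3.88 CPM in the 6 knockdown libraries (log2 fold change -3.53, SE 0.105). Markers of basal epithelium were abundant in every group, with KRT5 at 3867 CPM or more and TP63 at 71.2 CPM or more in every library. The 12 B lymphocyte markers summed to between 1.87 and 2.87 CPM in 8 libraries and to 320 CPM in shCHAF1B-1 replicate 3. In that library MS4A1 stood at 105 CPM, CD74 at 94.3 CPM and BANK1 at 0.511 CPM. CR2 went the other way, with its lowest value there, 0.354 CPM, while every other marker had its highest. None of the 12 was at 0 in every library. Without shCHAF1B-1 replicate 3, 22 pore genes fell and 3 rose with both hairpins together. The 4 fibroblast markers with a row summed to 7.92 to 8.3 CPM in shGFP and 12.4 to 15.4 CPM in the knockdown libraries, nearly all of it COL1A1. Their part in the results below was not tested.

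A second set of genes moved in the same direction. Of 20 proliferation markers, genes of DNA replication and mitosis, 19 fell and 0 rose with both hairpins together, with a median log2 fold change of -0.60. Their summed level was 3031 to 3114 CPM in shGFP, 2023 to 2128 CPM under shCHAF1B-1 and 2081 to 2207 CPM under shCHAF1B-2. None of the 20 was at 0. FEN1, a nuclease that trims Okazaki fragments, changed most by adjusted p (-1.24, SE 0.0465), and PCNA, the replication clamp, was the member that was not called (0.08, SE 0.05). The part of proliferation in the fall of the pore genes was not tested.

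**Figure D1:**
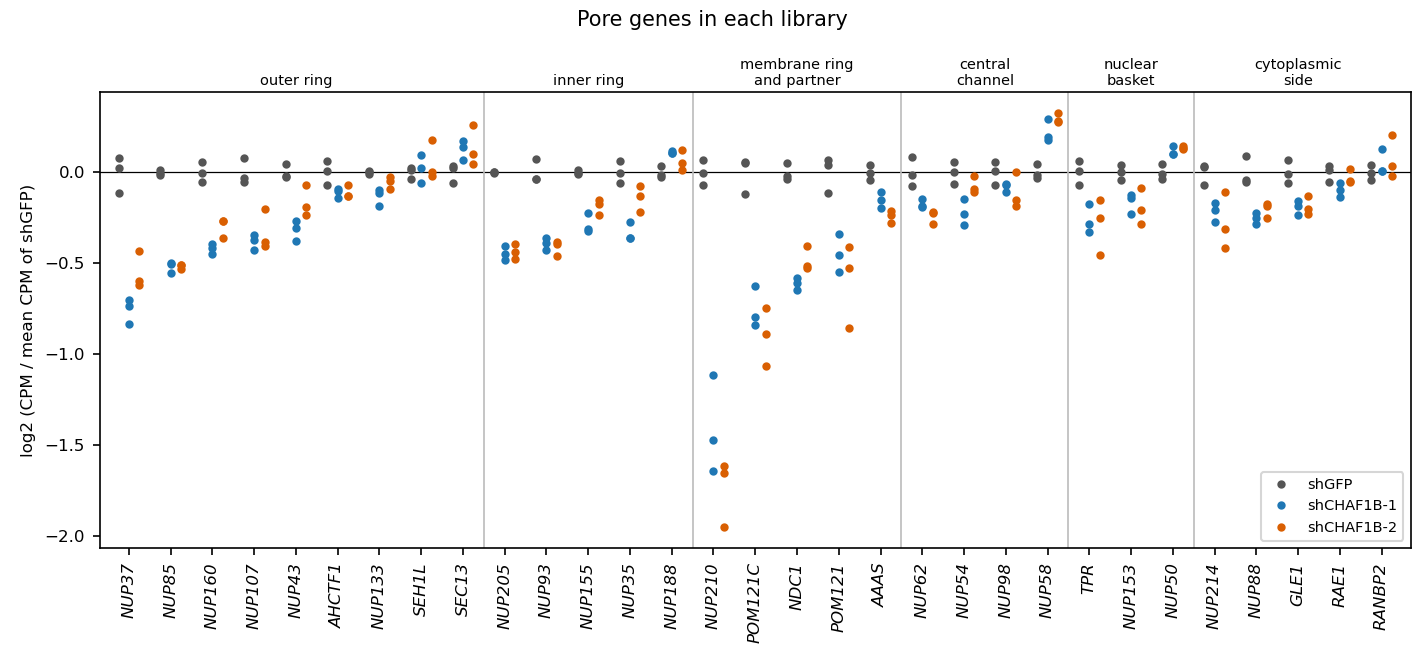
Each pore gene in each of the 9 libraries, as log2 of its CPM over the mean CPM of shGFP, with genes grouped by their place in the pore and ordered by change. NUP210 stands lowest, with its 6 knockdown libraries between 21.7 and 38.8 CPM against 80 to 88.2 CPM in shGFP, and NUP58 stands highest.

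The hairpins gave like counts when each was set against the same 3 shGFP libraries. With shCHAF1B-1, 22 pore genes fell and 3 rose, where 25.2% of all tested genes fell and 27.9% rose, and the pore median was -0.22. With shCHAF1B-2, 19 fell and 2 rose, where 24.6% of all tested genes fell and 26.7% rose, and the pore median was -0.19. These comparisons share their controls. The counts of risers were unstable. Without shGFP replicate 1 only 1 pore gene rose with both hairpins together, 1 with shCHAF1B-1 and 1 with shCHAF1B-2. The count for shCHAF1B-1 was also 1 without shGFP replicate 3, without either of shCHAF1B-1 replicates 1 and 2, and without shCHAF1B-2 replicate 1.

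Set directly against each other, the hairpins differed at 0 of the 31 pore genes in edgeR's test, against 0% of all tested genes. DESeq2 and limma-voom also called 0. At an unadjusted p under 0.05, 8 of the 31 pore genes and 1800 of the 16235 tested genes differed in edgeR. The share was larger among the pore genes. The differences of shCHAF1B-2 minus shCHAF1B-1 ran from -0.34 for NUP210 (95% interval -0.59 to -0.08, adjusted p = 0.42) to 0.21 for NUP37 (95% interval 0.06 to 0.36, adjusted p = 0.42). These intervals leave out 0 before adjustment, and the adjusted values did not pass. A missed threshold does not show that the hairpins act alike.

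**Figure D2:**
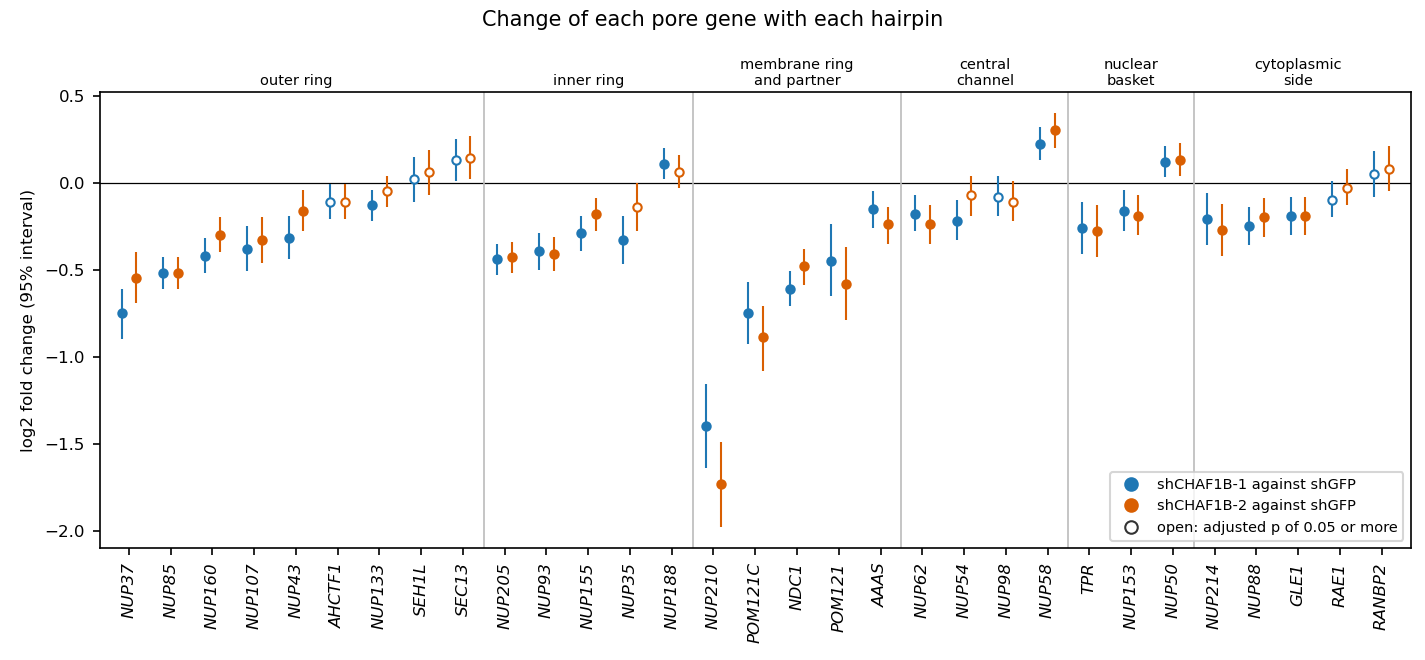
Log2 fold change of each pore gene with each hairpin against shGFP, with 95% intervals; filled points passed an adjusted p under 0.05 and open points did not. Both hairpins lie below 0 for all 5 genes of the membrane ring and its partner, and above 0 for NUP58 and NUP50.

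Replicate spread was small beside many of these differences. For 21 of the 31 pore genes (67.7%) all 6 knockdown libraries lay below all 3 shGFP libraries, which 22.8% of all tested genes did. For 3 (9.68%), SEC13, NUP58 and NUP50, all 6 lay above, which 25.8% of all tested genes did. For the other 7, AHCTF1, SEH1L, NUP188, NUP54, NUP98, RAE1 and RANBP2, the groups overlapped. A fall of at least 0.5 on the log2 scale was reached by 6 pore genes (19.4%) and by 10.0% of all tested genes. The 6 were NUP210, POM121C, NUP37, NDC1, NUP85 and POM121, and 4 of them belong to the membrane ring.

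The promoters of the strongest faller, NUP210, and of 2 other genes that fell, NUP37 and NDC1, are shown first. Those of the strongest riser, NUP58, and of the other 2 that rose, SEC13 and NUP50, follow. Members that moved in opposite directions can thus be read side by side. NUP37, NDC1, SEC13 and NUP50 were chosen after their values had been seen. The sequences are from RefSeq on GRCh38.p14, from 250 bases before to 50 bases after the gene's start, 5′ to 3′ on the gene's strand. Capitals mark the motifs searched on both strands. These were E2F as TTTCCCGC, TTTGGCGC, TTTCGCGC, TTTGCCGC or TTCCCGCC, the cell cycle homology region (CHR) as TTTGAA, NF-Y as CCAAT, NRF1 as GCGCATGC and ETS as CCGGAAG. GCGCATGC overlaps its own reverse complement, so GCGCATGCGC counts on both strands.
NUP210 promoter, chr3:13420273-13420572, minus strand: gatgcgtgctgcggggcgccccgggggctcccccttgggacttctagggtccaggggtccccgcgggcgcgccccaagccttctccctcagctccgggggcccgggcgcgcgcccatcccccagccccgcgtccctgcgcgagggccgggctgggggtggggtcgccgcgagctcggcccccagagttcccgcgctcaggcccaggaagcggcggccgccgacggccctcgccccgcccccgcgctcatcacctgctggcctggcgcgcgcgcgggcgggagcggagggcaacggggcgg
NUP37 promoter, chr12:102120065-102120364, minus strand: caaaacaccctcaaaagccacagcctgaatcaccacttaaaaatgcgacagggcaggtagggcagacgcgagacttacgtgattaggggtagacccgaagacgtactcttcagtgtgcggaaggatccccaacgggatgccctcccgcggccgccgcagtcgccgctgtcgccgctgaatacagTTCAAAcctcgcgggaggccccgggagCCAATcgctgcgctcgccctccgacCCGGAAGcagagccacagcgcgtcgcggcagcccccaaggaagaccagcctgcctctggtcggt
NDC1 promoter, chr1:53838247-53838546, minus strand: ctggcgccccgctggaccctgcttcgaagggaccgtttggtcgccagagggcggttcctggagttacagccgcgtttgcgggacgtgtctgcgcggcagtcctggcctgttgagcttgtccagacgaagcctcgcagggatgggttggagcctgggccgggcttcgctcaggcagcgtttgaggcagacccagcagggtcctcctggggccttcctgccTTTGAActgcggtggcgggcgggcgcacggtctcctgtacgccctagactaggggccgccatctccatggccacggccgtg
NUP58 promoter, chr13:25301375-25301674, plus strand: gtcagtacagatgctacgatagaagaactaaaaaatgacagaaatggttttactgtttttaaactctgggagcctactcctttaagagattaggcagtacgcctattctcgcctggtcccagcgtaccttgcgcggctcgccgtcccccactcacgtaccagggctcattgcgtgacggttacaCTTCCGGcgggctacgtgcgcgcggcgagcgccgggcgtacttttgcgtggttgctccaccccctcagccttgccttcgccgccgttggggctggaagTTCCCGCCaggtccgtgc
SEC13 promoter, chr3:10321063-10321362, minus strand: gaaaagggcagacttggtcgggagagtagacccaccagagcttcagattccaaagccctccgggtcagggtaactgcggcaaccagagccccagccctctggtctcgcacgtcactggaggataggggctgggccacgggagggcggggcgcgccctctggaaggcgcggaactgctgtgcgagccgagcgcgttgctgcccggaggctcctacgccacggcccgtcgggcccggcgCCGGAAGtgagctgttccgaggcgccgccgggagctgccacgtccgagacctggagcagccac
NUP50 promoter, chr22:45163675-45163974, plus strand: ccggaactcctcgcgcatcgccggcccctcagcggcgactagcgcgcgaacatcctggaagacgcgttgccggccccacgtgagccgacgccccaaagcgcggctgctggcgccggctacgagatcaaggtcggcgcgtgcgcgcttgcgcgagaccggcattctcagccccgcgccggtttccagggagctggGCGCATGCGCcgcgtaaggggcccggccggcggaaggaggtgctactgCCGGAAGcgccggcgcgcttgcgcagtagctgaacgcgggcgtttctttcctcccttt

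Promoters were found for 28 of the 31 pore genes, all but NUP43, AHCTF1 and GLE1. An ETS match was in 13 of the 28 (46.4%), against 19% of the 10535 promoters of tested genes, and a CHR match in 6 (21.4%) against 9.63%. NF-Y matches were in 10 (35.7%) against 36.6%, E2F matches in 3 (10.7%) against 8.91% and NRF1 matches in 3 (10.7%) against 5.53%. The ETS match occurred in genes that fell (9 of 20 with a promoter) and in all 3 that rose. Of the 6 with a CHR match, 5 fell: NUP37, NUP205, NUP35, NDC1 and NUP153. Of all 28 pore genes with a promoter 20 fell, and 5 of these 20 held a CHR match. In the window printed for NUP210 none of the searched motifs occurred. POM121C fell more than NUP37 and NDC1, but its promoter is not among those printed, and its window held an ETS match only. A match is a description of the letters, not a site shown to be bound.

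The outer ring, or Y complex, forms the coats of the pore on both faces of the envelope, and its members also bind kinetochores. Of its 9 genes 7 fell, 1 rose and 1 was not called, with a median log2 fold change of -0.24 and a summed level at 89.6% of control. With shCHAF1B-1 alone against shGFP 6 fell and 0 rose, and with shCHAF1B-2 alone 5 fell and 0 rose. NUP37 and NUP85 fell most, and the estimates of SEC13 and SEH1L, small beta-propeller proteins, were above 0.

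NUP37 (ENSG00000075188.8, chromosome 12, 102073103 to 102120124, minus strand, GRCh38), a small propeller protein on the NUP160 arm, changed most. Its level was 43.9, 48.3 and 50.1 CPM in shGFP, 26.6, 28.5 and 29.1 CPM under shCHAF1B-1 and 30.9, 31.3 and 35.2 CPM under shCHAF1B-2. All 6 knockdown libraries were below all controls, and shCHAF1B-1 held the lower values. The log2 fold change was -0.65 (SE 0.0574, adjusted p = 4.3e-07), or 63.7% of control.

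NUP85 (ENSG00000125450.10, chromosome 17, 75205659 to 75235758, plus strand), which holds SEH1L in the short arm, stood at 70.8, 69.4 and 69.9 CPM in shGFP. It was at 49.5, 49.3 and 47.8 CPM under shCHAF1B-1 and 48.4, 49.1 and 49.1 CPM under shCHAF1B-2. The groups were far apart and tight, and the hairpins left the same 69.8% of control (log2 fold change -0.52, SE 0.0368, adjusted p = 4.8e-08).

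SEH1L (ENSG00000085415.15, chromosome 18, 12947133 to 12987536, plus strand), its binding partner, was measured at 95.5, 98.9 and 99.9 CPM in shGFP, 105, 99.6 and 94.3 CPM under shCHAF1B-1 and 98.3, 96.8 and 111 CPM under shCHAF1B-2. The groups overlapped, and the change was not called (0.04, 95% interval -0.07 to 0.15). SEC13 (ENSG00000157020.17, chromosome 3, 10293131 to 10321178, minus strand), which also serves in the COPII vesicle coat, lay at 122, 130 and 129 CPM in shGFP. It was at 143, 140 and 133 CPM under shCHAF1B-1 and 131, 136 and 152 CPM under shCHAF1B-2. All 6 knockdown libraries were above the controls, the nearest by little. SEC13 rose with both hairpins together (0.14, SE 0.0496, adjusted p = 0.03), was not called with either alone (adjusted p = 0.068 and 0.05), and passed in 10 of 16 settings.

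Among the other Y-complex genes, NUP160 fell by 0.36, NUP107 by 0.35 and NUP43 by 0.24, and each passed in 16 of 16 settings. AHCTF1 (ELYS), the protein that seeds pores on chromatin after mitosis, fell by 0.11 (adjusted p = 0.031), was not called with either hairpin alone (adjusted p = 0.059 and 0.068) and passed in 9 of 16. NUP133 fell by 0.09 (adjusted p = 0.047), was not called with shCHAF1B-2 alone (adjusted p = 0.36) and passed in 4 of 16. Both calls are thus close to the threshold. AHCTF1 also shares 49.6% of the 50-base words of its transcript with its pseudogene AHCTF1P1, so its counts are uncertain.

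The inner ring spans the pore between the outer rings and holds the channel proteins in place. Of its 5 genes 4 fell and 1 was not called, with a median of -0.24 and a summed level at 84.7% of control. NUP205 and NUP188, related proteins that take like positions in the ring, were measured on opposite sides of 0.

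NUP205 (ENSG00000155561.14, chromosome 7, 135557919 to 135648757, plus strand), a large scaffold protein, was at 224, 223 and 224 CPM in shGFP, 160, 169 and 164 CPM under shCHAF1B-1 and 165, 170 and 161 CPM under shCHAF1B-2. Every knockdown library lay well under every control. The log2 fold change was -0.44 (SE 0.0355, adjusted p = 1.8e-07), or 73.8% of control.

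NUP188 (ENSG00000095319.14, chromosome 9, 128947699 to 129007096, plus strand) stood at 149, 154 and 148 CPM in shGFP, 162, 162 and 163 CPM under shCHAF1B-1 and 152, 164 and 156 CPM under shCHAF1B-2. The shCHAF1B-1 libraries were above all controls and the shCHAF1B-2 libraries overlapped them. NUP188 rose with shCHAF1B-1 (0.11, SE 0.0426, adjusted p = 0.046), while the change was not called with both together (0.09, adjusted p = 0.062) or with shCHAF1B-2 (0.06, adjusted p = 0.24). The difference between NUP205 and NUP188 was not itself tested.

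NUP93, the hub to which the other inner-ring proteins bind, fell by 0.40 (SE 0.0408), with libraries of 66.8 to 71.3 CPM after knockdown and 89.3 to 96.4 CPM in shGFP. NUP155 and NUP35, the members that touch the membrane, each fell by 0.24. NUP35 was the scarcest of the 5 by CPM, between 23.4 and 25.5 CPM in shGFP, and was not called with shCHAF1B-2 alone (-0.14, adjusted p = 0.083).

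The membrane ring and its partner AAAS held the largest falls. All 5 genes fell with both hairpins together and with each hairpin alone, with a median of -0.55. Their summed level was 381 ± 5.19 CPM in shGFP, 241 ± 7.18 CPM under shCHAF1B-1 and 236 ± 5.82 CPM under shCHAF1B-2 (SD, n = 3 each), or 62.6% of control. By library the sum ran from 60.5% to 64.9% of the control mean after knockdown, and no other place in the pore fell under 80%.

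**Figure D3:**
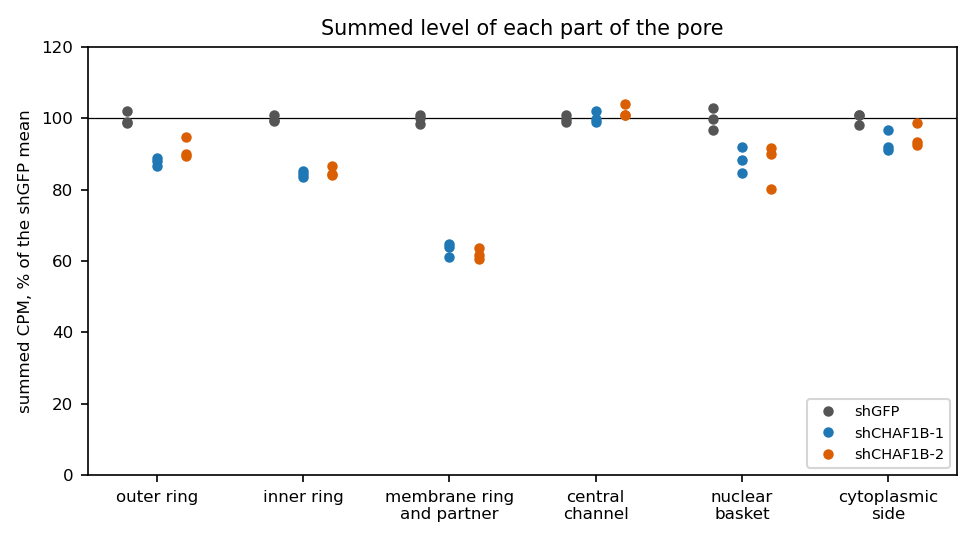
Summed CPM of the genes of each place in the pore, in percent of the shGFP mean, with 1 point per library and the axis starting at 0. The membrane ring and its partner lie between 60.5% and 64.9% in the knockdown libraries, the inner ring between 83.5% and 86.5%, and the central channel between 99% and 104%.

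NUP210 (gp210, ENSG00000132182.11, chromosome 3, 13316235 to 13420309, minus strand) is a membrane protein whose bulk lies in the space between the envelope's membranes, and its level is known to differ between cell types. Its level was 83.7, 88.2 and 80 CPM in shGFP, 30.2, 26.9 and 38.8 CPM under shCHAF1B-1 and 26.7, 27.4 and 21.7 CPM under shCHAF1B-2. The groups were far apart, and the highest knockdown value, shCHAF1B-1 replicate 3, was the library with the B lymphocyte markers. The log2 fold change was -1.56 (SE 0.0921, adjusted p = 7.6e-09), or 33.8% of control. Hairpin shCHAF1B-1 gave -1.40 (SE 0.111), and shCHAF1B-2 gave -1.73 (SE 0.114). Without shCHAF1B-1 replicate 3 the fall with both hairpins was -1.64, and over all 16 settings it ran from -1.64 to -1.51.

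POM121 (ENSG00000196313.11, chromosome 7, 72879365 to 72951440, plus strand) and POM121C (ENSG00000272391.5, chromosome 7, 75416787 to 75486271, minus strand) are near-copies of a transmembrane protein that takes part in interphase pore assembly. POM121C was at 37.8, 38 and 33.6 CPM in shGFP, 21, 20.4 and 23.6 CPM under shCHAF1B-1 and 19.7, 21.7 and 17.4 CPM under shCHAF1B-2 (log2 fold change -0.82, SE 0.0707, adjusted p = 3.3e-07). POM121 was at 47.7, 46.8 and 42.2 CPM in shGFP, 36, 31.2 and 33.2 CPM under shCHAF1B-1 and 31.7, 34.3 and 25.2 CPM under shCHAF1B-2 (log2 fold change -0.51, SE 0.0805, adjusted p = 9.7e-05). Both had all knockdown libraries below all controls. POM121 shares 1849 of its own exon bases (18.8%) with NSUN5P2 on the other strand. It also shares 53.5% of its 50-base words with POM121C, so the split of reads between POM121 and POM121C is uncertain. Added together, they stood at 85.5, 84.8 and 75.8 CPM in shGFP, 57, 51.5 and 56.8 CPM under shCHAF1B-1 and 51.4, 56 and 42.7 CPM under shCHAF1B-2, or 64.1% of control.

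NDC1 (ENSG00000058804.11, chromosome 1, 53765460 to 53838860, minus strand), the third membrane anchor and the one that recruits AAAS, was the most abundant of the ring by CPM. It was at 158, 156 and 166 CPM in shGFP, 105, 107 and 102 CPM under shCHAF1B-1 and 111, 112 and 121 CPM under shCHAF1B-2. The groups did not overlap, and the log2 fold change was -0.55 (SE 0.041, adjusted p = 8.5e-08), or 68.4% of control. AAAS (ENSG00000094914.12, chromosome 12, 53307456 to 53324864, minus strand), the propeller protein named aladin, changed least of the 5. It was at 54.3, 56.1 and 52.9 CPM in shGFP, 50.6, 47.5 and 49 CPM under shCHAF1B-1 and 46.2, 46.9 and 44.8 CPM under shCHAF1B-2. Those ranges lay apart, and AAAS fell by 0.20 (SE 0.0417, adjusted p = 0.0011).

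The central channel proteins carry the repeats that transport receptors bind. Of 4 genes 2 fell, 1 rose and 1 was not called, with a median of -0.12, and their summed level was 101% of control. NUP62, NUP54 and NUP58 form 1 trimer, and its genes did not move together. NUP62 fell by 0.21 (SE 0.0433) and NUP54 by 0.15 (SE 0.0457), while NUP58 rose. NUP54 was not called with shCHAF1B-2 alone (-0.07, adjusted p = 0.28).

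NUP58 (ENSG00000139496.15, chromosome 13, 25301524 to 25349800, plus strand) was at 169, 167 and 176 CPM in shGFP, 193, 209 and 195 CPM under shCHAF1B-1 and 214, 207 and 208 CPM under shCHAF1B-2. All 6 knockdown libraries were above all controls. The log2 fold change was 0.26 (SE 0.0397, adjusted p = 7.2e-05), or 120% of control, and it passed in 16 of 16 settings. NUP98 (ENSG00000110713.15, chromosome 11, 3671083 to 3797792, minus strand), a linker protein whose gene also encodes the scaffold protein NUP96, was at 192, 199 and 182 CPM in shGFP, 182, 177 and 183 CPM under shCHAF1B-1 and 168, 191 and 172 CPM under shCHAF1B-2. The groups overlapped and the change was not called (-0.09, 95% interval -0.19 to 0.01). Counts per gene do not separate NUP98 from NUP96. NUP62 shares 18.9% of its 50-base words with other genes and overlaps exons of ATF5 and IL4I1, so its counts are also less certain.

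The nuclear basket faces chromatin. Of its 3 genes 2 fell and 1 rose, with a median of -0.17 and a summed level at 87.8% of control. TPR (ENSG00000047410.13, chromosome 1, 186311652 to 186375693, minus strand), the coiled-coil protein of the basket's filaments, was at 418, 396 and 434 CPM in shGFP, 331, 342 and 369 CPM under shCHAF1B-1 and 350, 375 and 304 CPM under shCHAF1B-2. The groups lay apart although the shCHAF1B-2 libraries were spread, and TPR fell by 0.27 (SE 0.0599, adjusted p = 0.0016).

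NUP50 (ENSG00000093000.18, chromosome 22, 45163841 to 45188015, plus strand), a mobile protein that helps importins release cargo, was at 85.5, 90.5 and 87.3 CPM in shGFP, 94.2, 96.9 and 94.2 CPM under shCHAF1B-1 and 96.3, 97 and 95.8 CPM under shCHAF1B-2. All knockdown libraries were above the controls, and the rise was small (0.13, SE 0.0366, adjusted p = 0.0096). NUP50 shares 15.3% of its 50-base words with other genes, so its counts are less certain. NUP153, which ties the basket to the pore, fell by 0.17 (SE 0.0467).

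The cytoplasmic filaments and export platform release messenger RNA and disassemble export complexes. Of 5 genes 3 fell and 2 were not called, with a median of -0.19 and a summed level at 94.1% of control. NUP214 (ENSG00000126883.16, chromosome 9, 131125561 to 131234670, plus strand), which binds the export receptor XPO1, was at 66.2, 66.6 and 62 CPM in shGFP, 53.7, 56.3 and 57.7 CPM under shCHAF1B-1 and 52.3, 60.2 and 48.6 CPM under shCHAF1B-2. The highest knockdown value lay just under the lowest control. NUP214 fell by 0.24 (SE 0.0595, adjusted p = 0.0031), its partner NUP88 by 0.23 (SE 0.0434) and GLE1, an activator of the export helicase DDX19, by 0.19 (SE 0.0431). NUP88 overlaps exons of RABEP1 and RPAIN on the other strand, from which the library kit cannot separate it.

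RANBP2 (ENSG00000153201.15, chromosome 2, 108719481 to 108785811, plus strand), the large filament protein that binds Ran and acts in sumoylation, was at 165, 156 and 160 CPM in shGFP, 161, 161 and 175 CPM under shCHAF1B-1 and 164, 185 and 158 CPM under shCHAF1B-2. RAE1 (ENSG00000101146.12, chromosome 20, 57351010 to 57379211, plus strand), which pairs with NUP98 in RNA export, was at 62.7, 58.9 and 61.7 CPM in shGFP, 57.1, 55.7 and 58.7 CPM under shCHAF1B-1 and 59.2, 58.8 and 61.9 CPM under shCHAF1B-2. Both overlapped the controls and were not called. The change was 0.06 (95% interval -0.05 to 0.17) for RANBP2 and -0.06 (95% interval -0.15 to 0.03) for RAE1. RANBP2 shares 27.1% of its 50-base words with other genes, chiefly those of the RGPD family.

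Levels of different genes were compared per kilobase of transcript. In shGFP, SEC13 stood highest at 88.9 ± 3.06 CPM per kb, followed by NUP58 at 68.5 ± 2.00, SEH1L at 53.1 ± 1.26 and TPR at 42.8 ± 1.95 (SD, n = 3 each), each apart from the next by more than their SDs. Below them NUP205 (35.7 ± 0.0868) and NUP133 (35.1 ± 0.187) were close. NUP210 (11.7 ± 0.572), NUP155 (10.8 ± 0.0772), NUP214 (8.54 ± 0.334), POM121 (8.31 ± 0.543) and POM121C (6.25 ± 0.42) were lowest, and NUP214 and POM121 did not differ beyond their spread. SEC13 and NUP58, ranked 1 and 2, are among the 3 genes that rose, and the third, NUP50, ranked 22 at 16.8 ± 0.491. One length per gene was used, so an isoform of another length would move these values. POM121 and POM121C each share 63.3% of their 50-base words with other genes. Reads lost or misplaced there would move their levels and ranks, also beside NUP214.

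**Figure D4:**
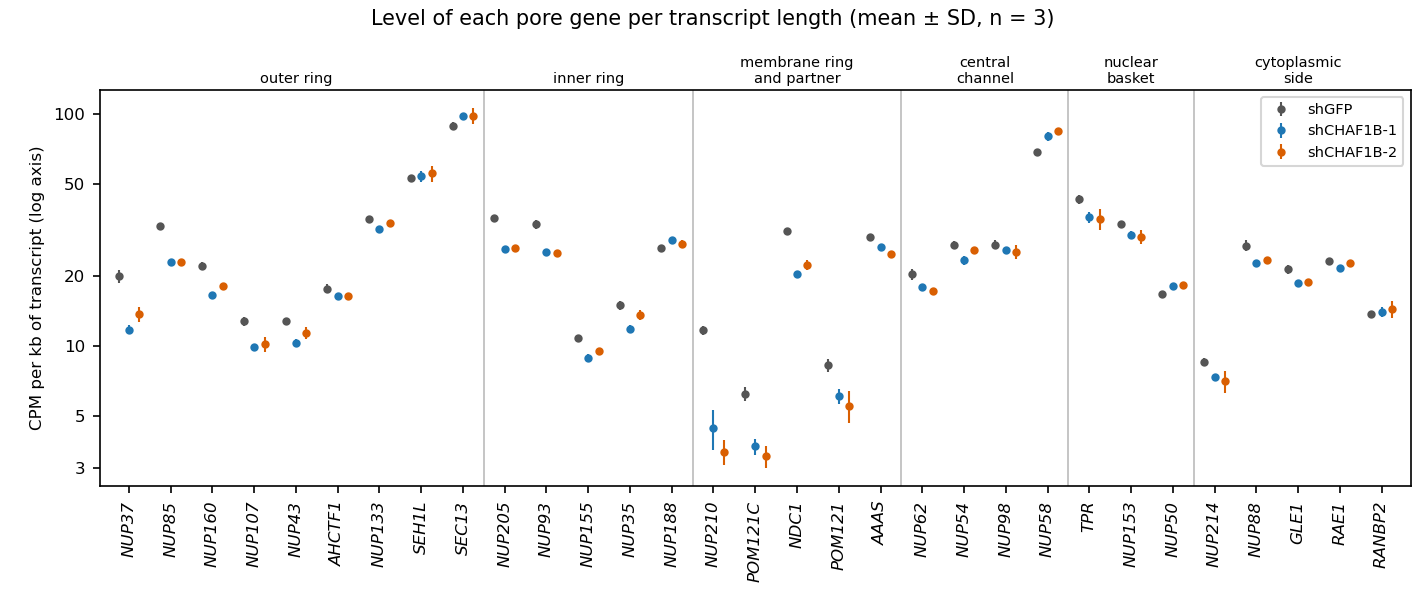
Level of each pore gene in CPM per kb of transcript on a log axis, as the mean and SD of 3 libraries in each group. SEC13 and NUP58 are highest in every group, and NUP210 and POM121C sit lowest after knockdown.

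Other genes of nuclear transport gave mixed counts. Of 18 importins 17 were tested, and 4 fell and 5 rose with both hairpins together (median -0.03). Among the importin-alpha adaptors KPNA5 rose by 0.78 (SE 0.0879) and KPNA3 by 0.41 (SE 0.0402), whereas KPNA2 fell by 0.27 (SE 0.0377). Of 8 exportins 3 fell and 0 rose (median -0.08), led by CSE1L, which returns importin-alpha to the cytoplasm (-0.39, SE 0.0383). XPO1, the main protein exporter, was not called (-0.03, SE 0.043).

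The Ran cycle gives transport its direction. Of its 8 genes 5 fell and 0 rose, with a median of -0.31. RCC1, the exchange factor that charges Ran on chromatin, fell from 154, 163 and 159 CPM in shGFP to 101, 101 and 104 CPM under shCHAF1B-1 and 101, 105 and 107 CPM under shCHAF1B-2 (-0.62, SE 0.0366, adjusted p = 7.6e-09). RANBP3 fell by 0.33 and RANBP1 by 0.35, and RAN itself was not called (-0.10, adjusted p = 0.091). Of 19 mRNA export genes 8 fell and 4 rose (median -0.03), and the helicase DDX39A fell by 0.54 (SE 0.0401).

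At the nuclear envelope around the pore, 8 of 14 lamina and envelope genes fell and 4 rose, with a median of -0.34. LBR, the lamin B receptor of the inner membrane, fell by 0.53 (SE 0.0375), LMNB1 by 0.40 (SE 0.0392) and LMNB2 by 0.51 (SE 0.0553). LMNA, which encodes the A-type lamins, rose by 0.40 (SE 0.0661), from 525 to 618 CPM in shGFP to 694 to 880 CPM after knockdown. Against the background of 27.7% falling, the shares were 62.5% in the Ran cycle, 57.1% at the envelope, 42.1% in mRNA export, 37.5% for exportins and 23.5% for importins. No difference between these lists and the pore genes was tested.

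**Figure D5:**
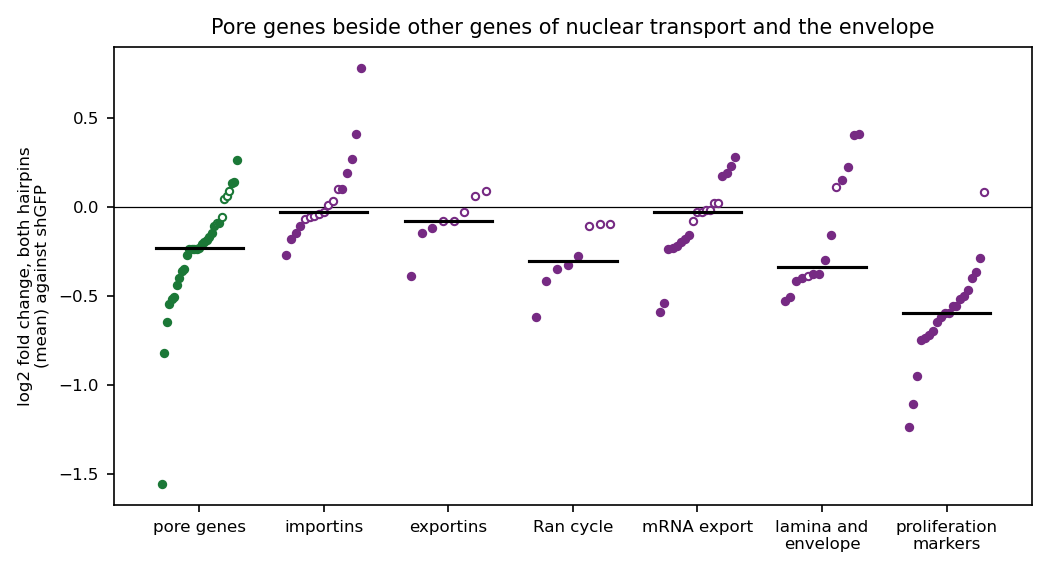
Log2 fold change with both hairpins together for the pore genes and 6 other lists, with 1 point per gene, open where the adjusted p was 0.05 or more, and a bar at the median. The medians run from -0.03 for importins and mRNA export to -0.60 for the proliferation markers, with the pore genes at -0.23.

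Hairpins can act on transcripts other than their target through short sequence matches. The 7-base word AAGCCGT and the words overlapping it, first AGCCGTC and then also GCCGTCA, had ranked among the lowest in parts of an earlier scan of these data, so they were looked for in the longest transcript of each gene. At least 1 was present in 6 of the 31 pore genes (19.4%), NUP85, SEC13, NUP210, POM121C, TPR and RANBP2, and in 2969 of 16221 tested genes with a transcript (18.3%). Of the 25 pore genes without them, 19 fell and 2 rose (median -0.21). NUP210, the gene with the largest fall, holds 1 in its coding sequence and 1 in its 3′ UTR. Both are printed, with the word in capitals, since this gene carries the largest change. The sequences of the hairpins were not available, so these words were not matched to either hairpin. Whether the hairpins acted on NUP210 was not tested.
NUP210 coding sequence: tggatcctcgAGCCGTCcaaattcttc
NUP210 3′ UTR: tttgtttcatAAGCCGTtgagacatct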

How the data were processed

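The table the authors deposited holds unnormalized counts of reads for each gene and library. Without assigning roles, the submitters' processing notes list the builds mm10 and hg38 and the tools HTSeq 0.8.0, DESeq2 1.18.1 and STAR 2.5.3a. The library kit named in the labels (TruSeq RNA, version 2) does not mark strand, so reads of antisense and overlapping genes cannot be told apart by strand. Whether such reads were counted or dropped was not examined. Identifiers were matched to GENCODE 29 without their version (26149 of 26186). After a filter on low counts (filterByExpr with a minimum count of 10, a minimum total of 15 and a proportion of 0.7), the 9 libraries were scaled by TMM and fitted jointly by group with edgeR 4.0.16 (R 4.3.3). Contrasts were each hairpin against shGFP, their mean against shGFP, and one hairpin against the other.

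Values in every library are given for the member with the largest and the smallest change in each place of the pore and for changes of at least 0.5, and of other lists up to 3 genes by adjusted p. Other genes named with values were chosen after their values were seen. The members, the lists and these rules were chosen with earlier results of these data known. Alternatives were RLE and upper-quartile scaling, DESeq2 1.42.0, limma-voom (limma 3.58.1), other filters, a stricter threshold, fits of the compared groups alone, a block on the replicate number and leaving out each library. A shared 50-base word is one also found in a transcript of another gene. The steps were run on simulated data, where recovery was required only for changes larger than those of every pore gene but NUP210. That run set no bar for smaller changes. Precision rests on at least 415 counts per pore gene and library.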

Additional observations from a re-analysis of the deposited data

How the results depend on the processing

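The counts of pore genes that fell stayed within 1.5 times under every alternative run. With all 31 members it was 20 to 24 with both hairpins together, 18 to 24 with shCHAF1B-1 and 17 to 22 with shCHAF1B-2. The counts of risers did not. Leaving out 1 library at a time gave 1 to 3 risers with both hairpins together, 1 to 4 with shCHAF1B-1 and 1 to 3 with shCHAF1B-2. With shCHAF1B-1 the count went from 3 to 1 under upper-quartile scaling, under DESeq2, with no filter and at an adjusted p under 0.01, and with shCHAF1B-2 from 2 to 1 under upper-quartile scaling and at an adjusted p under 0.01. The causes were not tested. With the replicate block 21 pore genes fell and 3 rose with both hairpins together, 22 and 2 with shCHAF1B-1 and 19 and 2 with shCHAF1B-2, and 0 differed between hairpins. The labels do not say that numbers pair libraries; deviations of same-numbered libraries correlated between -0.138 and 0.1, and 1 of 9 libraries correlated best with its own number. No pore gene changed sign with both hairpins together. Against shGFP with single hairpins, SEH1L was the member that did so, in 3 fits, and it was not called. Upper-quartile scaling moved the median of all genes to -0.0446, the largest shift of the scalings run. Leaving out members with a 7-base word, or POM121, POM121C, AHCTF1 and RANBP2, was added after seeing the data and left 19 and 20 that fell with both hairpins together.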
